A study of Mus musculus with 6 samples.

Results

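The genes described here encode the proteins of the mitochondrial ribosome, and were chosen as every row of the deposited gene table whose symbol is Mrpl or Mrps followed by a digit. There were 73 such genes among 11955 rows, 46 named for the large subunit (Mrpl) and 27 for the small subunit (Mrps). RNA was sequenced in 6 libraries whose label, chondrocytes, names the cells of cartilage: 3 from mice labelled Eldr cKI and 3 from mice labelled control. Eldr is a long noncoding RNA, and the series concerns its place in chondrocyte senescence. The strain, the age of the animals, the promoter or Cre line behind the cKI allele, and whether each library came from a separate animal are not given in the sources used here, so p-values measure only the spread between these samples, which may be technical. Eldr itself was not analysed here, so the genotype labels have no check of their own. Values are FPKM, the fragments per kilobase of transcript scaled to the mapped fragments of each library.

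Mitochondria keep a small genome of their own and translate its messages on their own ribosomes. The RNA of these ribosomes is made from mitochondrial DNA, but all of their proteins are encoded in the nucleus, translated in the cytosol and imported. The products of this translation are core subunits of the respiratory chain and the ATP synthase. Proteins with low numbers, up to 36 in the large subunit and 21 in the small subunit, carry a number also used in bacteria. Higher numbers name mostly proteins added in mitochondria, but the rule goes by number and not by the origin of each protein. By this rule 41 of the 73 genes had a bacterial number and 32 a mitochondrial one. The gene symbols are older than the solved structures: the human proteins MRPS30 and MRPS18A sit in the large subunit, although their mouse genes are counted here with the small subunit by name. The GENCODE M21 annotation of GRCm38 names 78 protein-coding Mrpl and Mrps genes. Of these, Mrpl4, Mrpl28, Mrpl55, Mrps11 and Mrps27 were not analysed here. The 73 genes lay on 17 chromosomes.

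The promoters of 4 genes named in the results are shown because the proteins of the mitochondrial ribosome come from scattered nuclear genes. The transcription factors NRF-1 and GABP (also called NRF-2) are known regulators of nuclear genes for mitochondrial proteins. All 4 hold an NRF-1 or GABP match, whereas only 25 of the 65 promoters found for these genes hold any of the letters searched. Mrpl14, Mrpl16, Mrpl41 and Mrps15, also named below, are among those that hold none. Each sequence is the 250 bases upstream of the transcription start in RefSeq, on GRCm38.p6 and the plus strand. Mrpl12 is at chr11:120484387-120484636, Mrpl9 at chr3:94443086-94443335, Mrpl22 at chr11:58171414-58171663 and Mrps18c at chr5:100798509-100798758. Capitals mark a match to the NRF-1 letters, GCGCA and GCGC with any 1 base between them (Mrpl12 and Mrpl9), or to the GABP letters CCGGAAG (Mrpl22 and Mrps18c), searched on both strands.
Mrpl12: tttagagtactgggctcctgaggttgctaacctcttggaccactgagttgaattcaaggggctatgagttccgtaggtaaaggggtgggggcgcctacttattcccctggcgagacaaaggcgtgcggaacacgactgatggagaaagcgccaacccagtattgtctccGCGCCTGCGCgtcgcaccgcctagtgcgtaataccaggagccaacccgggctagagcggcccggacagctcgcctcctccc
Mrpl9: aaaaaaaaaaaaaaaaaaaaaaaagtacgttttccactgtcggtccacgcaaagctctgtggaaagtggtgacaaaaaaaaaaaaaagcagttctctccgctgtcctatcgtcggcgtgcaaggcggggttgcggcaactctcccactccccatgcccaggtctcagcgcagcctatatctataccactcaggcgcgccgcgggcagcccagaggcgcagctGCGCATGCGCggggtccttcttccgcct
Mrpl22: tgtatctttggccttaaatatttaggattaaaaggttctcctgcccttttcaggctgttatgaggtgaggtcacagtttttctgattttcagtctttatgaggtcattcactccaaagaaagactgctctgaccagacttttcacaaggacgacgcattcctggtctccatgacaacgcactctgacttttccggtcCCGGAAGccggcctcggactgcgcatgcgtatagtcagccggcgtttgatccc
Mrps18c: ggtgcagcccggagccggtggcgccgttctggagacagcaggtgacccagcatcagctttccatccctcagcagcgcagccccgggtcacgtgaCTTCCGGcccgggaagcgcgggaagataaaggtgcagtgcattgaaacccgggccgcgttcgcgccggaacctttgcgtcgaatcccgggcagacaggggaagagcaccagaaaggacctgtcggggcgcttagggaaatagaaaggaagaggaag

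The NRF-1 match of Mrpl12 lay 81 to 72 bases upstream of the start, on the other strand. That of Mrpl9 lay 28 to 19 bases upstream and read as a match on both strands. The GABP match of Mrpl22 lay 53 to 47 bases upstream, and that of Mrps18c 156 to 150 bases upstream on the other strand. Of the 73 genes, 65 had a promoter in the RefSeq table, and Mrpl54 was not among them. For each of these the 1 promoter nearest the gene's listed start was used, at a distance of up to 17016 bases (Mrpl33). The shares over all promoters count every entry instead, so the 2 shares are not built alike. The NRF-1 letters were found in 10 of these 65 promoters (15.4%), against 1228 of all 32851 promoters (3.74%). The GABP letters were found in 15 of 65 (23.1%), against 2269 of all promoters (6.91%). The letters AAGATGGCG, for YY1, were found in 1 of 65 (1.54%), against 199 of all promoters (0.606%). The median GC content was 58.4% for the 65 promoters and 52.4% for all, and its part in these shares was not tested. A match describes the letters only.

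Several facts of the libraries touch every value below. Estimates of depth, from the commonest product of FPKM and length in genes with 1 transcript, came to 103363, 69111 and 239144 fragments for the Eldr cKI libraries (replicates 1 to 3) and to 167566, 64166 and 84349 fragments for the control libraries (replicates 1 to 3). Rows above 0 numbered 4420, 5814 and 8390 in Eldr cKI and 8969, 5175 and 5413 in control (exact permutation test, two-sided, p = 0.8, with 0.1 the smallest p that 3 against 3 can give). Of 13 cartilage markers, 7 had rows and 6 others were not analysed here. These 7 summed to 3.35, 1.25 and 10.4 FPKM in Eldr cKI and 12.7, 10.8 and 5.01 FPKM in control, with Col2a1, the main cartilage collagen, listed at 0 in every Eldr cKI library and in control replicate 3. The 9 cardiomyocyte markers with rows were above 0 in all 6 libraries, and summed to 1543, 5073 and 2086 FPKM in Eldr cKI and 1051, 2262 and 1674 FPKM in control. The labelled cell type is thus not borne out by its markers, and the samples are called by their genotype labels below. Photoreceptor markers summed to 0, 5.51 and 0 FPKM in Eldr cKI and 1039.7, 1281 and 0 FPKM in control, so control replicates 1 and 2 stood apart. Hepatocyte markers summed to 56.3, 212 and 177 FPKM in Eldr cKI and 67.4, 484 and 7194 FPKM in control, so control replicate 3 stood apart. Erythroid markers summed to 437, 665 and 46.9 FPKM in Eldr cKI and 418, 776 and 977 FPKM in control, macrophage markers to 209, 217 and 10.9 FPKM and 178, 140 and 271 FPKM, and endothelial markers to 0, 17.6 and 2.04 FPKM and 3.97, 11.01 and 11.9 FPKM. Predicted genes named Gm and a digit summed to 127056 of 188859 FPKM in Eldr cKI replicate 1. Genes encoded by mitochondrial DNA made up 8.51%, 43.9% and 31.1% of all FPKM in Eldr cKI and 29.1%, 50.9% and 68.3% in control. In these bulk samples, fewer cells of a type and less RNA per cell cannot be told apart, and the part of any of these differences in the values of the mitochondrial ribosomal proteins was not tested.

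Messages for mitochondrial ribosomal proteins were scarce in these libraries. The median gene had a mean of 3.35 FPKM over the 6 libraries, with means from 0.546 to 31.2 FPKM. The median was 91.9 FPKM for the 76 proteins of the cytosolic ribosome, 45.3 FPKM for the 78 nuclear subunits of oxidative phosphorylation and 2.47 FPKM for all rows. Genes above 0 numbered 22, 26 and 58 of 73 in Eldr cKI and 56, 28 and 28 of 73 in control. Eldr cKI replicate 3 and control replicate 1 therefore held the greatest numbers, and these were also the libraries of the greatest estimated depth. As shares of the 73 these numbers are 30.1%, 35.6% and 79.5% in Eldr cKI and 76.7%, 38.4% and 38.4% in control, beside 37.0%, 48.6% and 70.2% and 75.0%, 43.3% and 45.3% of all rows. By contrast, 75, 76 and 76 of the 76 cytosolic ribosomal proteins were above 0 in Eldr cKI and 76 in each control library. Only Mrpl32 and Mrpl48, both of the large subunit, were above 0 in all 6 libraries, which is 2.74% of the genes, against 14.4% of all rows tested and 62.8% of the oxidative phosphorylation subunits.

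**Figure D1:**
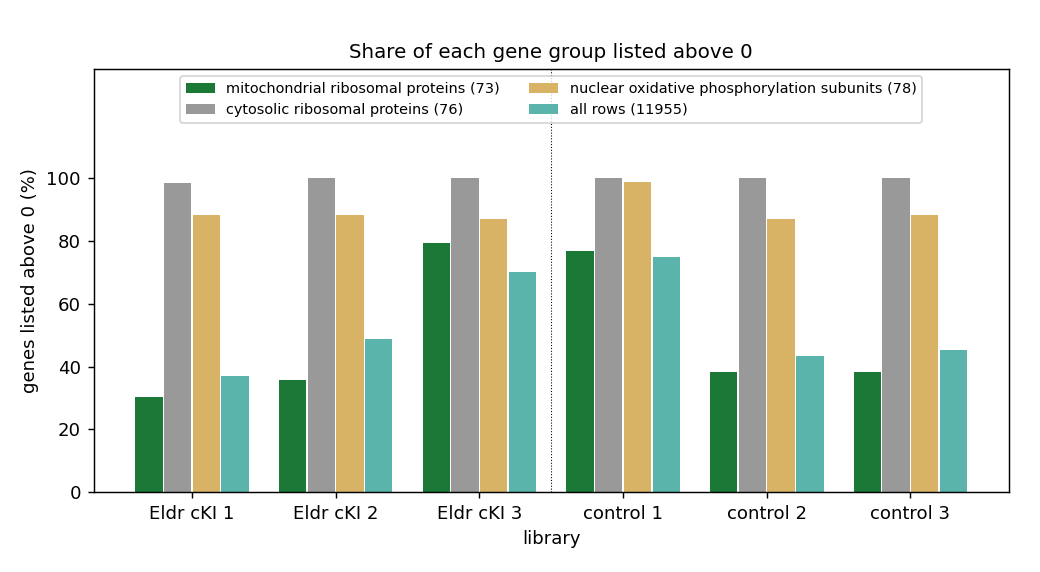
Share of genes with an FPKM above 0 (vertical axis, percent) in each library, with Eldr cKI replicates on the left and control replicates on the right, for mitochondrial ribosomal proteins, cytosolic ribosomal proteins, nuclear oxidative phosphorylation subunits and all rows. For the mitochondrial ribosomal proteins, Eldr cKI replicate 3 (79.5%) and control replicate 1 (76.7%) stand above the rest, which lie between 30.1% and 38.4%.

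The fragments behind single values were few. At the median transcript length of these genes, 846 bases, 1 fragment was worth 11.4, 17.1 and 4.94 FPKM in Eldr cKI replicates 1, 2 and 3, and 7.05, 18.4 and 14.01 FPKM in control replicates 1, 2 and 3. Of the 438 values (73 genes in 6 libraries), 220 were 0 (50.2%, against 46.8% over all rows). The 218 values above 0 had a median of 0.734 estimated fragments, and 150 of them (68.8%) came to under 1.5 fragments. The largest value, of Mrpl1 in Eldr cKI replicate 3, came to 11.9 estimated fragments. These estimates are rough: only 3 of the 73 genes have a single annotated transcript, and a value under 1 fragment can come from the depth estimate, the length used or the share assigned, which were not told apart. Polr2a, a subunit of RNA polymerase II that all cells use, was also listed at 0 in Eldr cKI replicate 1 and control replicate 3, so 0 is reported below as listed, and no fold is given against a group at 0.

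**Figure D2:**
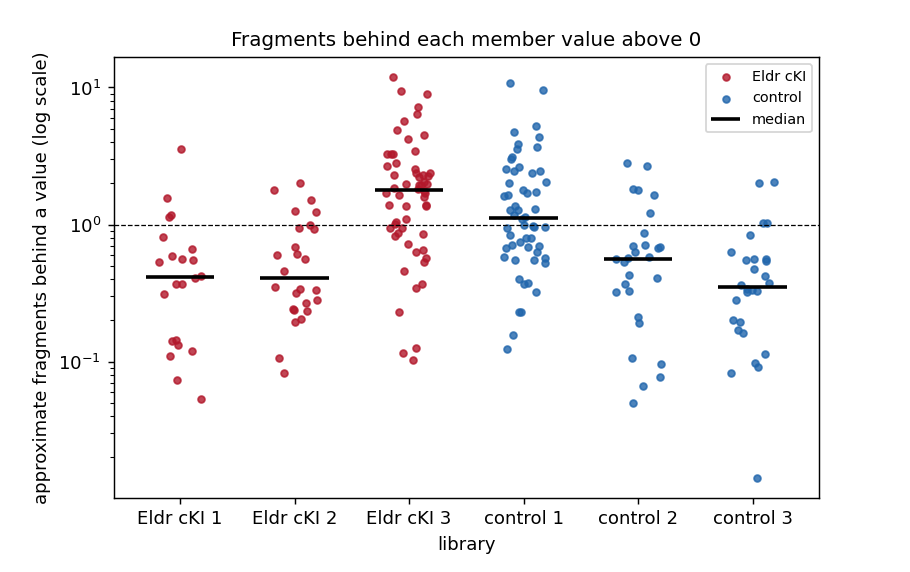
Estimated fragments (vertical axis, log scale) behind each value above 0 of a mitochondrial ribosomal protein gene, by library, with Eldr cKI on the left and control on the right. Each point is 1 gene; the medians are 0.416, 0.406 and 1.78 fragments in Eldr cKI replicates 1, 2 and 3, and 1.11, 0.564 and 0.351 fragments in control replicates 1, 2 and 3.

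The comparison of Eldr cKI with control asked whether any of these genes differed between genotypes. None passed an adjusted p of 0.05 in limma with Benjamini-Hochberg adjustment over the whole table: 0 of 73, against 3 of 10772 rows in all (0.0278%). At an unadjusted p under 0.05 the count was 0 higher and 1 lower in Eldr cKI, Mrpl54, beside 0.678% (higher) and 1.66% (lower) of all rows. By the p-values of the authors' deposited table, 1 of the 73 was under 0.05, again Mrpl54, and 0 had a q under 0.05. The median log2 difference, Eldr cKI minus control on log2(FPKM + 1), was 0.02 over the 73 genes, with 38 above 0 and 35 below, beside a median of -0.04 over all rows tested. By subunit the medians were 0.01 for the large subunit (24 above 0 and 22 below) and 0.04 for the small subunit (14 and 13). They were 0.04 for genes with bacterial numbers (23 and 18) and -0.18 for genes with mitochondrial numbers (15 and 17). With values this sparse, an equal median does not show that the genes were at equal levels.

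**Figure D3:**
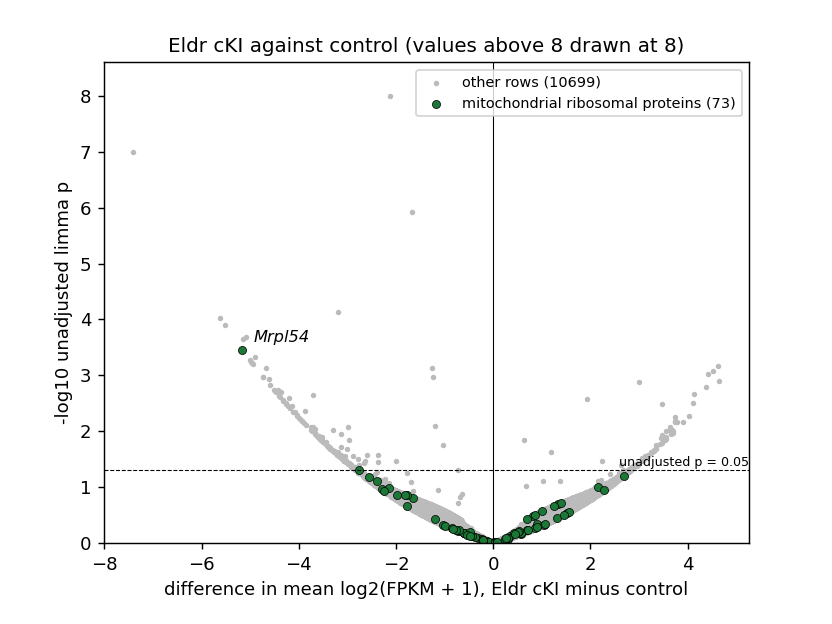
Difference between Eldr cKI and control on log2(FPKM + 1) (horizontal axis) against the -log10 unadjusted limma p (vertical axis) for all 10772 rows tested, with the 73 mitochondrial ribosomal proteins marked and values above 8 drawn at 8. Mrpl54 is the member with the smallest p, 0.000348, and the other 72 lie below the level of an unadjusted p of 0.05.

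Mrpl54, a large-subunit protein added in mitochondria, was the gene that differed most. It was listed at 0 in all 3 Eldr cKI libraries and had 101.6, 18.9 and 21.4 FPKM in control replicates 1, 2 and 3. The groups did not overlap, as was so for 2.53% of all rows in this direction and for no other member. Its limma p was 0.000348, the 10th smallest among all rows tested, and its Benjamini-Hochberg adjusted p was 0.375, above the threshold. Over the alternatives tried it ranged from 0.0741 to 1.00, apart from 0.0505 in a fit without control replicates 1 and 2, chosen after seeing the data, which leaves a single control library. The p in the authors' deposited table was 0.00248 with a q of 0.704. The 3 control values came to about 9.65, 0.687 and 1.02 fragments, so that control replicates 2 and 3 rest on about 1 fragment each. Being at 0 in every Eldr cKI library and above 0 in every control library was seen in 82 rows tested (0.761%), and the reverse in 42 rows (0.39%).

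Mrpl54 lies on the minus strand at chr10:81264713-81266934, and the start of Apba3, which encodes an adaptor protein, is 26 bases from its own on the opposite strand. Apba3 was listed at 0, 4.41 and 0 FPKM in Eldr cKI and at 0 in every control library. With a single value above 0, it cannot tell whether the neighbour shared the pattern of Mrpl54.

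Of the other genes lower in Eldr cKI by unadjusted p, Mrpl14, Mrpl22 and Mrpl16 followed. They are large-subunit proteins with bacterial counterparts, that of Mrpl22 lining the exit tunnel of the nascent protein. Mrpl14 was listed at 0 in every Eldr cKI library and had 22.8, 0 and 12.3 FPKM in control. Mrpl22 was listed at 0 in every Eldr cKI library and had 11.2, 15.9 and 0 FPKM in control. Mrpl16 was listed at 0 in every Eldr cKI library and had 8.94, 13.7 and 0 FPKM in control. In each of these the control group also held a library at 0, so the groups overlapped, and the limma adjusted p was 0.959 for each. Altogether 8 genes were listed at 0 in all Eldr cKI libraries, all of the large subunit: Mrpl14, Mrpl16, Mrpl22, Mrpl34, Mrpl44, Mrpl53, Mrpl54 and Mrpl57. That is 8 of 73, where 13.2% of all rows tested had this pattern. In Eldr cKI replicate 3, the deepest library by estimate, 26 of 27 small-subunit and 32 of 46 large-subunit genes were above 0. This 1 library was thus enough to keep nearly all small-subunit genes from this pattern. Another 8 genes were listed at 0 in all control libraries, where 9.49% of all rows had that pattern: Mrpl10, Mrpl11, Mrpl27, Mrpl40, Mrpl41, Mrpl47, Mrps6 and Mrps15.

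The genes with the smallest unadjusted p in the other direction were Mrpl9, Mrps15, Mrps34 and Mrpl41. Mrpl9, a large-subunit protein with a bacterial counterpart, had 3.54, 16.01 and 23.3 FPKM in Eldr cKI and 5.99, 0 and 0 FPKM in control. Its log2 difference was 2.69 with an SE of 1.45 (adjusted p = 0.959, limma), and control replicate 1 lay above Eldr cKI replicate 1. Mrps34, a small-subunit protein added in mitochondria, had 7.03, 19.9 and 8.78 FPKM in Eldr cKI and 13.1, 0 and 0 FPKM in control, a log2 difference of 2.29 with an SE of 1.45 (adjusted p = 0.959, limma). Both genes were above 0 in every Eldr cKI library and in control replicate 1. Mrps15, of the small subunit, had 5.68, 0 and 12.5 FPKM in Eldr cKI and was listed at 0 in every control library. Mrpl41, of the large subunit, had 0, 0 and 16.9 FPKM in Eldr cKI and was listed at 0 in every control library, so its pattern is that of a single library. The SE in this fit comes from the trend of spread over all genes and not from the gene's own libraries.

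**Figure D4:**
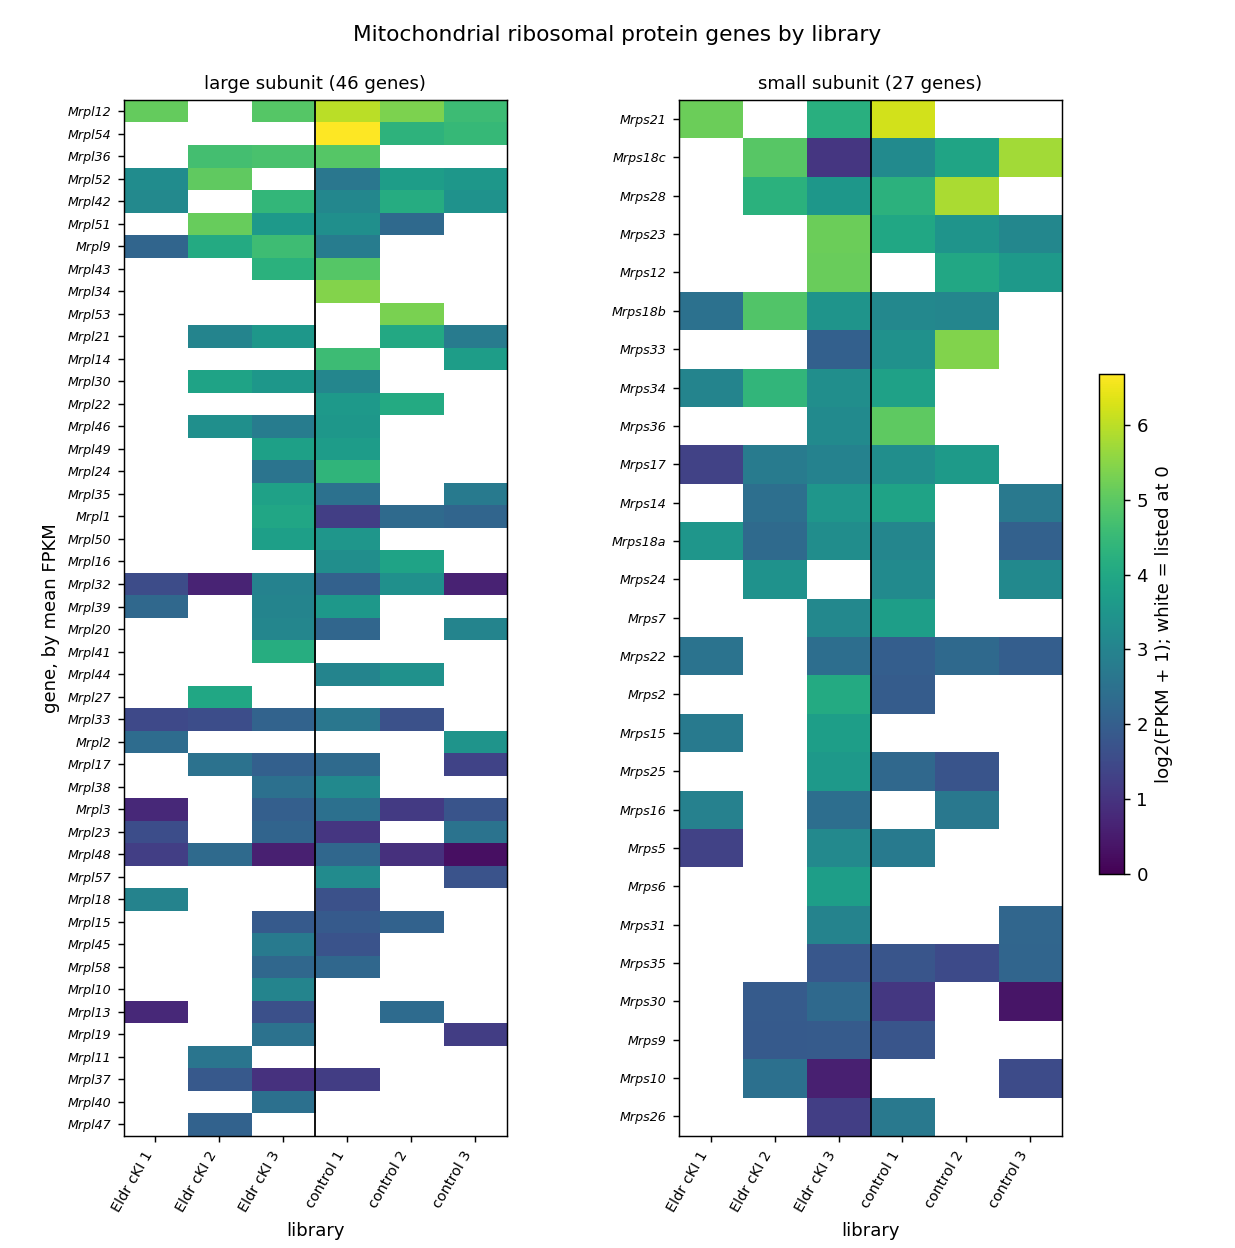
FPKM of the 73 mitochondrial ribosomal protein genes (rows) in each library (columns), with Eldr cKI replicates on the left and control replicates on the right; colour gives log2(FPKM + 1), white is a value listed at 0, and the panels hold the 46 large-subunit and 27 small-subunit genes. Most rows are filled in Eldr cKI replicate 3 and control replicate 1, and Mrpl32 and Mrpl48 are filled across all 6 libraries.

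The highest mean over the libraries was that of Mrpl12, at 31.2 FPKM. Mrpl12 forms the flexible stalk that recruits translation factors, and the human protein also binds the mitochondrial RNA polymerase. It had 33.3, 0 and 29.0 FPKM in Eldr cKI and 62.0, 40.1 and 23.0 FPKM in control, and the groups overlapped. Its limma adjusted p was 0.959. Mrpl10 and Mrpl11, the proteins at the base of the stalk, were each above 0 in 1 library, at about 2.06 and 0.238 fragments. Values this sparse cannot show whether they went with Mrpl12. Mrpl10 had 0, 0 and 7.03 FPKM and Mrpl11 had 0, 5.02 and 0 FPKM in Eldr cKI, and both were listed at 0 in every control library.

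Several further large-subunit genes have known roles. Mrpl3, whose bacterial counterpart reaches toward the catalytic centre, had 0.717, 0 and 3.03 FPKM in Eldr cKI and 4.48, 1.21 and 2.33 FPKM in control. Mrpl44, which has the fold of a ribonuclease, was listed at 0 in every Eldr cKI library and had 7.10, 9.42 and 0 FPKM in control. Mrpl45, which helps to hold the ribosome to the inner membrane, had 0, 0 and 5.65 FPKM in Eldr cKI and 2.27, 0 and 0 FPKM in control. Mrpl3 was above 0 in 5 of the 6 libraries, Mrpl44 and Mrpl45 in 2 each, and none passed the threshold. Mrpl58, a peptidyl-tRNA hydrolase that frees stalled ribosomes, had 0, 0 and 3.74 FPKM in Eldr cKI and 3.69, 0 and 0 FPKM in control. Mrpl36 had 0, 24.9 and 26.1 FPKM in Eldr cKI and 29.4, 0 and 0 FPKM in control. Mrpl52 had 8.58, 32.4 and 0 FPKM in Eldr cKI and 5.33, 12.1 and 10.6 FPKM in control. The groups overlapped for each of these genes.

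Mrpl32, whose import and cleavage by the mitochondrial m-AAA protease precede its assembly, and Mrpl48 were the genes above 0 throughout. Mrpl32 had 1.94, 0.591 and 6.74 FPKM in Eldr cKI and 3.23, 9.27 and 0.571 FPKM in control. Mrpl48 had 1.37, 3.96 and 0.510 FPKM in Eldr cKI and 3.70, 0.918 and 0.199 FPKM in control. By the rough estimates, every Mrpl48 value came to under 1 fragment, from 0.0142 in control replicate 3 to 0.527 in control replicate 1. Mrpl32 came to 0.0832 fragments in Eldr cKI replicate 2 and 0.0982 in control replicate 3, its lowest. Its highest was 3.29 fragments, in Eldr cKI replicate 3. Their log2 differences were -0.30 with an SE of 1.45 for Mrpl32 and 0.24 with an SE of 1.39 for Mrpl48, both within 1 SE of 0. The annotation holds a named pseudogene of Mrpl48, as it does of Mrpl23 and Mrps36, so reads of these genes may have been shared. Mrpl48 also overlaps Rab6a on the opposite strand. Rab6a had 13.2, 69.9 and 60.6 FPKM in Eldr cKI and 25.9, 14.5 and 50.4 FPKM in control.

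In the small subunit, Mrps12 is the counterpart of a protein at the decoding centre, and Mrps7 and Mrps2 have counterparts in the head and body of the bacterial subunit. Mrps12 had 0, 0 and 34.6 FPKM in Eldr cKI and 0, 14.99 and 11.3 FPKM in control. Mrps7 had 0, 0 and 7.63 FPKM in Eldr cKI and 12.5, 0 and 0 FPKM in control. Mrps2 had 0, 0 and 16.1 FPKM in Eldr cKI and 2.88, 0 and 0 FPKM in control. All 3 were above 0 in Eldr cKI only in replicate 3, the deepest library. Mrps36, also known as a component of the 2-oxoglutarate dehydrogenase complex, had 0, 0 and 8.21 FPKM in Eldr cKI and 31.6, 0 and 0 FPKM in control. Mrps23 had 0, 0 and 35.5 FPKM in Eldr cKI and 14.7, 9.99 and 7.55 FPKM in control. For Mrps23, the single Eldr cKI library above 0 was higher than every control library.

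Mrps21 had 35.0, 0 and 17.6 FPKM in Eldr cKI and 73.1, 0 and 0 FPKM in control. Mrps28 had 0, 18.4 and 10.6 FPKM in Eldr cKI and 18.6, 55.7 and 0 FPKM in control. Mrps18c had 0, 29.8 and 1.06 FPKM in Eldr cKI and 8.17, 13.9 and 52.5 FPKM in control. These are among the 8 genes of highest mean, and in each the groups overlapped. Mrps18c has 2 paralogs of other places in the ribosome, Mrps18a and Mrps18b, and whether reads were shared among them was not tested. Mrps18a had 10.49, 3.92 and 8.75 FPKM in Eldr cKI and 7.45, 0 and 3.18 FPKM in control. Mrps18b had 4.63, 28.3 and 10.1 FPKM in Eldr cKI and 7.63, 7.41 and 0 FPKM in control. The median of both paralogs was higher in Eldr cKI and that of Mrps18c was lower, with groups that overlapped in all 3 genes.

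Summed over the 73 genes, FPKM came to 154, 305 and 551 in Eldr cKI and 727, 379 and 223 in control. The large subunit gave 76.6, 174 and 301 FPKM in Eldr cKI and 473, 210.0 and 122 FPKM in control, and the small subunit gave 77.4, 130.2 and 249.8 FPKM in Eldr cKI and 254, 169 and 100.3 FPKM in control. Sums varied more within each genotype than between them. The small subunit held 50.2%, 42.8% and 45.3% of the summed FPKM in Eldr cKI and 34.9%, 44.6% and 45.1% in control. Leaving out genes of the mitochondrial genome and the predicted Gm genes, which took much of the FPKM in some libraries, the 73 genes were 0.337%, 0.278% and 0.377% of what remained in Eldr cKI and 0.578%, 0.397% and 0.194% in control. On this scale too the groups overlapped, with the Eldr cKI libraries between the highest and the lowest control library.

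Genes that act beside the ribosome in mitochondrial translation were described from lists, and 0 genes of the 5 lists that follow passed the threshold of limma in either direction. Of mitochondrial ribosomal proteins under other names, 4 of 5 were tested, 3 above 0 and 1 below, with a median log2 difference of 0.65. Chchd1, a small-subunit protein, had 0, 62.2 and 23.9 FPKM in Eldr cKI and was listed at 0 in every control library. It was the single gene of these lists with an unadjusted limma p under 0.05, and its adjusted p was 0.959. Aurkaip1, another small-subunit protein, had 0, 16.3 and 9.20 FPKM in Eldr cKI and 10.1, 0 and 16.7 FPKM in control. Of 25 assembly and rRNA modification factors, 12 were tested, 8 above 0 and 4 below, with a median of 0.60. Ngrn, needed for the stability of the large-subunit RNA, had 0, 9.54 and 14.6 FPKM in Eldr cKI and was listed at 0 in every control library. In the other direction, Mettl15 was listed at 0 in every Eldr cKI library and had 0, 0 and 5.42 FPKM in control.

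Of 14 translation factors, 11 were tested, 9 above 0 and 2 below, with a median of 0.74. Tufm, the elongation factor that brings aminoacyl-tRNA, had 4.49, 13.5 and 11.8 FPKM in Eldr cKI and 18.9, 0 and 0 FPKM in control. Gfm1, the elongation factor of translocation, had 2.18, 36.5 and 20.2 FPKM in Eldr cKI and 18.5, 3.51 and 9.39 FPKM in control. The groups overlapped for both factors. In the other direction, Slirp had 3.12, 0 and 9.01 FPKM in Eldr cKI and 3.85, 10.02 and 3.82 FPKM in control. Of 20 aminoacyl-tRNA synthetases and amidotransferase subunits, 11 were tested, 5 above 0 and 6 below, with a median of -0.12. Gatb, a subunit of the glutamyl-tRNA amidotransferase, had 10.2, 3.32 and 0.966 FPKM in Eldr cKI and was listed at 0 in every control library. Of 10 genes of mitochondrial transcription and DNA upkeep, 5 were tested, all above 0, with a median of 1.18. Those with rows summed to 16.6, 17.4 and 42.7 FPKM in Eldr cKI and 17.6, 1.45 and 5.62 FPKM in control, so the groups overlapped. Twnk, the mitochondrial DNA helicase, had 9.38, 0 and 17.2 FPKM in Eldr cKI and was listed at 0 in every control library. Chchd1, Ngrn, Gatb and Twnk were each named for the smallest unadjusted limma p among the higher genes of their list. Of all rows tested, 9.49% were listed at 0 in every control library. The pattern of Gatb, also above 0 in every Eldr cKI library, was seen in 0.39% of all rows tested. A log2 difference above 0 was seen in 48.9% of all rows tested. The medians and counts of these lists were not recomputed under the alternatives tried.

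Cytosolic ribosomal proteins had a median log2 difference of 0.05, with 40 of 76 above 0 and 36 below, and nuclear oxidative phosphorylation subunits a median of -0.44, with 24 of 78 above 0 and 54 below. None of either list passed the threshold of limma: at an unadjusted p under 0.05 there were 0 of the 76, and 3 higher and 3 lower of the 78. Genes of the mitochondrial genome, which the mitochondrial ribosome translates, had a median of -1.13, with 1 of 13 above 0 and 12 below. Of these, 2 passed the threshold as lower in Eldr cKI, against 0.0278% of all rows, but no row of the table passed it without control replicate 3, without Eldr cKI replicate 1 or without the mean-variance trend. The gene above 0 was mt-Atp6, a subunit of the ATP synthase, with 150.4, 5698 and 6785 FPKM in Eldr cKI and 0.0439, 6950 and 14442 FPKM in control. Its sign rests on control replicate 1, as every Eldr cKI value lay below control replicates 2 and 3.

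**Figure D5:**
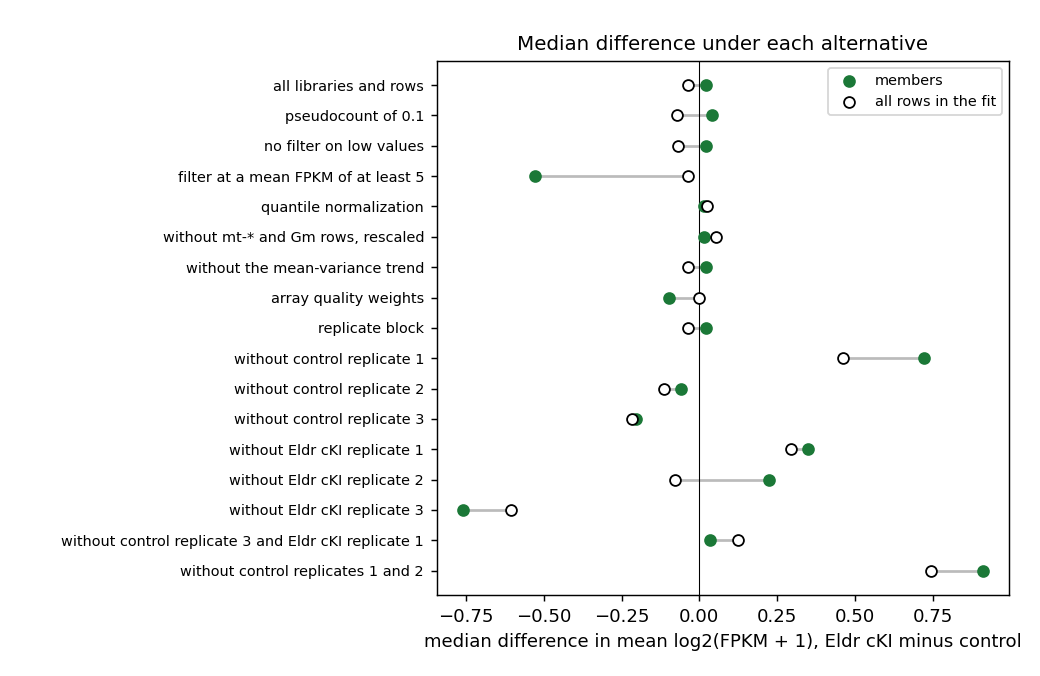
Median log2 difference, Eldr cKI minus control (horizontal axis), over the mitochondrial ribosomal proteins and over all rows tested, under the analysis as reported and each alternative (vertical axis). Both medians lie near 0 as reported, at 0.02 and -0.04 (mitochondrial ribosomal proteins first). They are -0.76 and -0.61 without Eldr cKI replicate 3, and 0.72 and 0.46 without control replicate 1. Without Eldr cKI replicate 2 they are 0.23 and -0.08, and with a minimum of 5 FPKM they are -0.53 and -0.04.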

How the data were processed

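RNA of 3 Eldr cKI and 3 control samples was measured. Per the labels' protocols, poly(A) selection or rRNA removal came before a stranded kit. The submitters' processing notes name cutadapt, HISAT2 2.0.5 and StringTie. They name the human build hg19, yet identifiers and loci are of the mouse: 11017 of 11955 rows, and 68 of the 73 genes here, match the spans of GENCODE M21 on GRCm38. No source used here says if counting used strand. Of the 73 genes, 25 overlap another protein-coding gene, 22 of them on the opposite strand, and reads of such pairs may be mixed.

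The authors deposited FPKM per library, scaled to mapped fragments, per the file headers. Their deposited table also gives group values, which equal means of log2(FPKM + 1), with a log2 difference, a linear ratio, a p-value and its q-value. Other per-sample columns numbered 0.

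Differences were computed with limma 3.58.1 in R 4.3.3 on log2(FPKM + 1), with group as the only term and a mean-variance trend. Rows with a mean of at least 0.5 FPKM entered (10772, all 73 genes among them). Genes were called at 0.05 after Benjamini-Hochberg adjustment. The pseudocount of 1 understates changes of low genes. Depth was read from the commonest FPKM times length in genes with 1 transcript. Only 25.3% to 42.0% of low values came within 0.05 of a whole number of fragments, so counts were not recovered and no count test was run. Promoters came from RefSeq (GRCm38.p6). Summaries used Python 3.11.15, pandas 2.3.3, numpy 2.4.6 and matplotlib 3.10.9.

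The members and lists were chosen with earlier results of these data known. Genes were named by a rule: the 8 of highest mean FPKM, those above 0 in all libraries, the 4 of smallest unadjusted p in each direction, those whose groups do not overlap, and 13 of known role. From the other lists, the smallest p in each direction and the highest mean could be named. Mrpl1, Mrps18a, Mrps18b, the other genes listed at 0 throughout a group and the neighbouring genes were chosen after their values were seen. The 4 promoters shown were picked outside the naming rule.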

Additional observations from a re-analysis of the deposited data

How the results depend on the processing

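In 16 alternatives, the number of mitochondrial ribosomal proteins past the threshold was 0 in each, as in the analysis reported, with between 1 and 11 at an unadjusted p under 0.05. The adjusted p of Mrpl54 ranged from 0.0741 with array weights to 1.00, and was 0.0505 in the fit with 1 control library. The count over all rows was 3 as reported. It was 8 with a pseudocount of 0.1, 1 with a minimum of 5 FPKM, 1 with quantile normalisation, 0 without the trend (356 at an unadjusted p under 0.05) and 17 with array weights. Leaving out 1 library gave 0 to 12 (12 without control replicate 1, 0 without control replicate 3, 0 without replicate 1 of Eldr cKI and 5 without its replicate 2). The cause was not tested. Leaving out libraries that stand apart was chosen after seeing the data: without control replicate 3 and Eldr cKI replicate 1 the count was 0 (351 at an unadjusted p under 0.05), and with neither control replicate 1 nor 2 it was 0 (910 at an unadjusted p under 0.05), the lone control being assumed to vary like the Eldr cKI libraries.

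The median log2 difference of the mitochondrial ribosomal proteins ranged from -0.76 without Eldr cKI replicate 3 to 0.72 without control replicate 1, and was 0.91 without control replicates 1 and 2 (0.75 over all rows). With a minimum of 5 FPKM, 25 of the genes remained in the fit, with a median of -0.53 (9 above 0 and 16 below), against -0.04 over all rows. Same-numbered libraries did not deviate together (r = -0.18, 0.03 and -0.16 for numbers 1, 2 and 3), and Eldr cKI replicate 3 deviated most like control replicate 1 (r = 0.24). With a replicate block, 5 rows and 0 of the 73 genes passed. Of the values above 0, 68.8% came to under 1.5 estimated fragments, and these estimates are rough.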

Other observations

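Set against the cytosolic ribosome in the same library, the summed FPKM of the mitochondrial ribosomal proteins was 3.06%, 3.28% and 3.79% in Eldr cKI and 6.05%, 4.65% and 3.87% in control, so that every Eldr cKI library lay below every control library. This ratio was computed after the values had been seen and carries no test. Without Mrpl54 it was 3.06%, 3.28% and 3.79% in Eldr cKI and 5.21%, 4.42% and 3.50% in control, and the groups overlapped. Against the nuclear subunits of oxidative phosphorylation it was 5.85%, 5.68% and 15.7% in Eldr cKI and 17.1%, 8.82% and 5.25% in control, and the groups overlapped.

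The start of 31 of the 73 genes lay within 1000 bases of the start of a protein-coding gene on the opposite strand, and 22 of these neighbours had a row. Those named here were picked after their values were seen. Mrpl49 had 0, 0 and 12.97 FPKM in Eldr cKI and 11.9, 0 and 0 FPKM in control, while Fau, which encodes a protein of the cytosolic ribosome from a start 59 bases away, had 76.2, 136 and 143 FPKM in Eldr cKI and 160.4, 187 and 65.2 FPKM in control. Mrpl36 and Ndufs6, a complex I subunit whose start is 29 bases away, overlap. Ndufs6 had 68.8, 0 and 32.8 FPKM in Eldr cKI and 86.2, 34.7 and 26.3 FPKM in control, and was at 0 in Eldr cKI replicate 2, where Mrpl36 had 24.9 FPKM. Mrpl43 had 0, 0 and 18.3 FPKM in Eldr cKI and 29.5, 0 and 0 FPKM in control, and overlaps Twnk.

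Of the 73 genes, 16 (21.9%) were above 0 in no library other than Eldr cKI replicate 3 and control replicate 1, against 14.6% of all rows tested. These are the libraries of the greatest estimated depth, and the part of depth in this difference was not tested.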
